A study of Drosophila melanogaster with 3 samples.

Results

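Aminoacyl-tRNA synthetases are the enzymes that join each amino acid to its transfer RNA. The synthetase genes were taken here as the protein-coding genes of the fly annotation whose symbol is 1 or 2 amino acid codes followed by RS, with or without the suffix -m. This name pattern gave 33 of 13945 protein-coding genes, of which 18 carry no suffix and are called cytoplasmic, and 15 carry -m and are called mitochondrial. The data are peak lists from chromatin immunoprecipitation and sequencing (ChIP-seq) of whole Drosophila melanogaster embryos, in 3 biological replicates of 1 group, so no treatment or genotype was compared. The embryos, of both sexes together and aged 0 to 24 h, came from a single transgenic line that makes Dip3, the product of the gene Dlip3, with GFP fused to its C-terminus. DNA held by the fusion protein was recovered from chromatin sonicated to 200 to 800 bp with an antibody against GFP. Dip3 belongs to a family of DNA-binding proteins with MADF and BESS domains and is known as a partner of Dorsal. In whole embryos, binding in fewer cells and weaker binding in each cell cannot be told apart. The files hold no expression values, so neither the embryo stages nor the level of any synthetase was checked.

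Animals translate in 2 compartments, and both sets of synthetases are encoded in the nucleus. The cytoplasmic enzymes charge the transfer RNAs used by cytosolic ribosomes, and the mitochondrial ones are imported to charge those of the organelle. Not every cytoplasmic gene has a counterpart with the suffix, and for some amino acids a single animal gene supplies both compartments. Synthetases fall into class I and class II by the fold of the catalytic domain. In mammals several cytoplasmic synthetases sit together in a multisynthetase complex. In all organisms these are housekeeping enzymes, needed wherever protein is made.

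A synthetase gene was called bound when the summit of a peak lay within 500 bp of any of its annotated starts. The peaks were the 3741 regions of the authors' set thresholded by the irreproducible discovery rate (IDR). That rate scores whether regions keep their rank from replicate to replicate. The set holds the 3741 strongest regions by signal of the list called on the pooled replicates. A single peak in it therefore need not be in the list of every replicate. The 33 genes have 43 annotated starts, and 24 of the genes have 1 start. Of the 33 genes 9 were bound (27.3%, exact 95% interval 13.3 to 45.5%), against 2834 of all 13945 protein-coding genes (20.3%). The bound genes were ArgRS, AsnRS, AspRS, GluProRS, IleRS, SerRS, ThrRS, ArgRS-m and LeuRS-m. The interval of the synthetase share includes the share of all genes. It takes the 33 genes as independent draws, which a family picked by name is not. It is therefore no test of the difference, and none is read from it.

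The 9 bound genes carried 10 peaks, and every one of the summits also lay within 500 bp of the start of a second gene that runs the other way. To show what this DNA looks like, 4 sites from chromosome arms 3L and 3R are printed. They are the cytoplasmic sites of GluProRS and IleRS, of signal rank 567 and 621 in the IDR set, and the sites of both bound mitochondrial genes, ArgRS-m and LeuRS-m. For GluProRS and LeuRS-m the DNA between the 2 opposed starts is given whole, and for IleRS and ArgRS-m the summit with 50 bases on either side. Each is read 5′ to 3′ on the strand of the synthetase gene, from the RefSeq copy of Release 6 of the fly genome, the sequence of build dm6. Capitals mark CGATA (the core of the site of the insulator protein BEAF-32), TCAGT (the initiator core), CAGCTG (Ohler motif 5) and CACGTG (the canonical E-box), each on either strand.
GluProRS to AP-1sigma, chr3R:23958392-23958650, minus strand, summit 210 bases before the GluProRS start: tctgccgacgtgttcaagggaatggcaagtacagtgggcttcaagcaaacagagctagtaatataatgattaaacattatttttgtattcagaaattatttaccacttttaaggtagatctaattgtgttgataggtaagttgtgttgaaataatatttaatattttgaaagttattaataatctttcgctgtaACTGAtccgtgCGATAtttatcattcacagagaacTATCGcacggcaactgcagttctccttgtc
IleRS summit, chr3L:22288494-22288594, plus strand, summit in the middle: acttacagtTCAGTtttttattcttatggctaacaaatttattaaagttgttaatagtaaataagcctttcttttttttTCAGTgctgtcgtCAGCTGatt
ArgRS-m summit, chr3R:7886842-7886942, plus strand, summit in the middle: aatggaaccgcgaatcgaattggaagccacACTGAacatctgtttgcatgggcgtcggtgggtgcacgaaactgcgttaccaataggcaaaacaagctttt
LeuRS-m to Dhc64C, chr3L:4825688-4825852, plus strand, summit 65 bases before the LeuRS-m start: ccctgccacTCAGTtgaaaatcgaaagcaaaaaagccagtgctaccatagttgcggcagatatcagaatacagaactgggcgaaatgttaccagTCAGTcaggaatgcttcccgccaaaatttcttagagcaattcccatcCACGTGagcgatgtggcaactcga
The IleRS window and the GluProRS gap were rich in A and T, with G and C making up 27.7% and 34.0% of the bases. The share was 48.5% in the ArgRS-m window and 47.3% in the LeuRS-m gap.

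The bound genes were mostly cytoplasmic ones. Of the cytoplasmic genes 7 of 18 were bound (38.9%, exact 95% interval 17.3 to 64.3%), against 2 of 15 mitochondrial genes (13.3%, 1.66 to 40.5%). These intervals cover counting error only, with genes taken as independent draws. They overlap, and both include the 20.3% of all protein-coding genes that were bound. Across the 12 amino acids whose symbol occurs both with and without the suffix, arginine was the only one with both genes bound. For asparagine, aspartate, isoleucine and serine (4 amino acids) the cytoplasmic gene alone was bound, and for leucine the mitochondrial gene alone. For the other 6, which are alanine, cysteine, methionine, tryptophan, tyrosine and valine, neither gene was bound. Glutamate and proline are outside these 12, since their cytoplasmic gene is the joint GluProRS. That gene was bound, while GluRS-m and ProRS-m were not.

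SerRS, the seryl-tRNA synthetase, had the strongest peak of the family. Its summit lay at +34 bp, in non-coding exon sequence of the gene, in a region of 2L from 3037243 to 3037566 (build dm6, as are all positions). The signal value given by the authors' peak caller was 583, rank 110 of the 3741 IDR peaks. In the replicates' own lists the region ranked 125, 118 and 126, so its place was nearly the same in all 3. CG17260 starts 8 bp away on the other strand.

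GluProRS, the bifunctional enzyme that charges the transfer RNAs of both glutamate and proline, had the second strongest peak (3R, 23958406 to 23958795). Its summit lay at −210 bp, with a signal of 286. The region ranked 416, 553 and 1096 in replicates 1, 2 and 3. The summit was nearer to the start of AP-1sigma, a subunit of the AP-1 clathrin adaptor, which was 50 bp away. IleRS, the isoleucyl-tRNA synthetase, had a short region of 151 bp (3L, 22288476 to 22288626) with its summit at −121 bp and a signal of 273. It ranked 697, 556 and 881, inside the 1000 strongest regions of every replicate, as did SerRS but not GluProRS. Hem, a subunit of the WAVE complex that acts on actin, starts 470 bp from IleRS.

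AsnRS, the asparaginyl-tRNA synthetase, was the 1 member with 2 IDR peaks, and these overlap on 2L (19131804 to 19132193 and 19132012 to 19132401). The stronger had its summit at −45 bp, a signal of 199 and ranks of 1004, 1099 and 1347 in the replicates. The weaker had its summit at −253 bp, a signal of 93.8 and rank 3284 in the IDR set. In replicate 1 both matched the same region, while replicates 2 and 3 listed the weaker one at ranks 3037 and 20646. The gene on the other strand is DCTN6-p27, a dynactin subunit gene, whose start is 369 bp from that of AsnRS and nearer to the weaker summit.

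ThrRS, the threonyl-tRNA synthetase, had its summit at −123 bp (2L, 12103433 to 12103822) with a signal of 187. It ranked 1024 and 749 in replicates 1 and 2 but 4104 in replicate 3. AspRS, the aspartyl-tRNA synthetase, was bound only through the second of its 3 starts, with the summit at −216 bp from it (2R, 12879873 to 12880262) and a signal of 184. That summit lay in an intron shared by the annotations of AspRS and Nmda1, 162 bp inside Nmda1, and counting the most upstream start of each gene removed AspRS from the bound genes. The AspRS region ranked 1274, 653 and 2814. At another of its starts AspRS faces Lfg across a gap of 38 bp, and Lfg was not bound. The peak of ArgRS, the cytoplasmic arginyl-tRNA synthetase (X, 15844062 to 15844451), was the one with the least replicate backing. It had its summit at −112 bp and a signal of 94.3, it ranked 3830 and 4467 in replicates 2 and 3, and replicate 1 listed no region there.

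Of the mitochondrial genes, ArgRS-m had the stronger peak (3R, 7886697 to 7887086), with the summit at −153 bp, 159 bp from the start of CG17816 on the other strand. Its signal was 148 and its ranks were 1333, 2909 and 2532. LeuRS-m (3L, 4825593 to 4825982) had its summit at −65 bp. Dhc64C, the heavy chain of cytoplasmic dynein, starts 166 bp away on the other strand. Its signal was 94.3, the same as that of ArgRS, and the 2 peaks held ranks 3257 and 3258. LeuRS-m ranked 2251 in replicate 3, against 5659 and 8386 in replicates 1 and 2. The −log10 q of that region was 0.508 and 0.426 in replicates 1 and 2 and 3.87 in replicate 3, the only replicate with this region in its top list.

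Over all 10 peaks the signal ran from 93.8 to 583 with a median of 185, against a median of 149.7 over the 2147 IDR peaks at protein-coding starts. The 8 cytoplasmic peaks had a median of 193 and the 2 mitochondrial ones a median of 121. The strongest of the 2147 reached 2759.5, well above SerRS. Of the 10 summits 9 were upstream of the synthetase start, and the median position was −122 bp, against 84.9% upstream and a median of −89 bp for the 2147. The summit furthest inside the window was the weaker AsnRS one at 253 bp, and the nearest one outside it was 1099 bp from AlaRS, so no summit lay near the limit of 500 bp. Within 200 bp of a start 7 synthetase genes were bound (5 cytoplasmic, 2 mitochondrial), without AspRS and GluProRS, against 14.8% of all genes. Within 1000 bp the count stayed at 9, against 23.2% of all genes. With the most upstream start alone it was 8, against 18.5%.

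**Figure D1:**
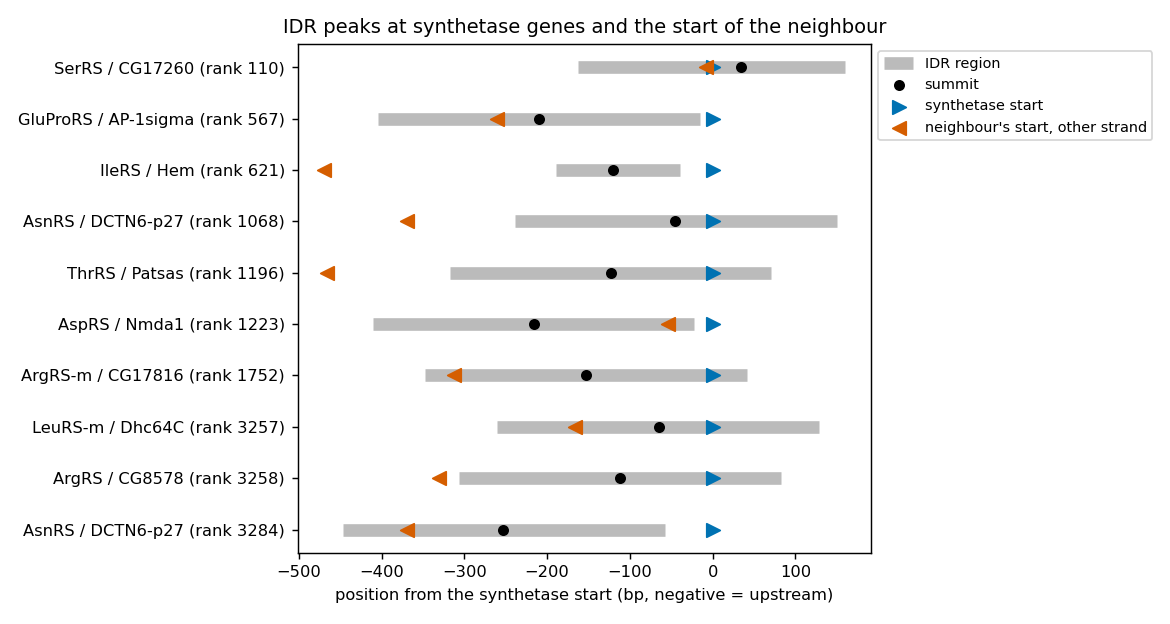
Each grey bar is one of the 10 IDR regions at synthetase genes, drawn by its position in bp from the synthetase start (negative values are upstream), with the summit as a black point, the synthetase start as a blue arrowhead and the start of the gene on the other strand as an orange arrowhead, ordered by signal rank. The summits sit between −253 and +34 bp, and 9 of 10 are left of the synthetase start.

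Replicate 3 stood apart from the other 2 at these genes. It lists more regions with q of at most 0.01 (8812, against 2480 in replicate 1 and 3226 in replicate 2). A top list was therefore taken as the 3741 strongest regions of each replicate, as many as the IDR set holds. It put a summit within 500 bp of a start in 7, 7 and 11 of the 33 synthetase genes in replicates 1, 2 and 3, against 17.6%, 19.0% and 21.2% of all genes. Replicates 1 and 2 named the same 7 genes, which were AsnRS, AspRS, GluProRS, IleRS, SerRS, ThrRS and ArgRS-m. Replicate 3 kept 6 of these, without ThrRS, and added GlnRS, HisRS, ValRS, LeuRS-m and PheRS-m.

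The cytoplasmic share was above the mitochondrial one in each of the 3 top lists. In replicates 1, 2 and 3 it was 33.3%, 33.3% and 44.4% of the cytoplasmic genes, a mean of 37.0% ± 6.42 (SD, n = 3). The mitochondrial genes stood at 6.67%, 6.67% and 20%, which is 11.1% ± 7.70 on average (SD, n = 3), so the 2 groups do not overlap. The difference was 26.7, 26.7 and 24.4 percentage points, a mean of 25.9 ± 1.28 (SD, n = 3). A two-sided exact sign-flip permutation test over the replicates gave p = 0.25, the smallest that 3 replicates allow, so this design cannot separate the difference from 0. Without replicate 3 the mean difference was 26.7 points. The small spread holds for these 33 genes and does not measure how another set of genes would fall.

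All synthetase genes together stood closer to the background. They stood at 21.2%, 21.2% and 33.3%, a mean of 25.3% ± 7.00, against 17.6%, 19.0% and 21.2% of all genes, a mean of 19.3% ± 1.81 (SD, n = 3 each). The difference of 3.59, 2.25 and 12.1 points had a mean of 5.99 ± 5.36 (SD, n = 3) and an exact sign-flip permutation p of 0.25, two-sided. Without replicate 3, which had the largest of the 3 differences, its mean was 2.92 points.

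**Figure D2:**
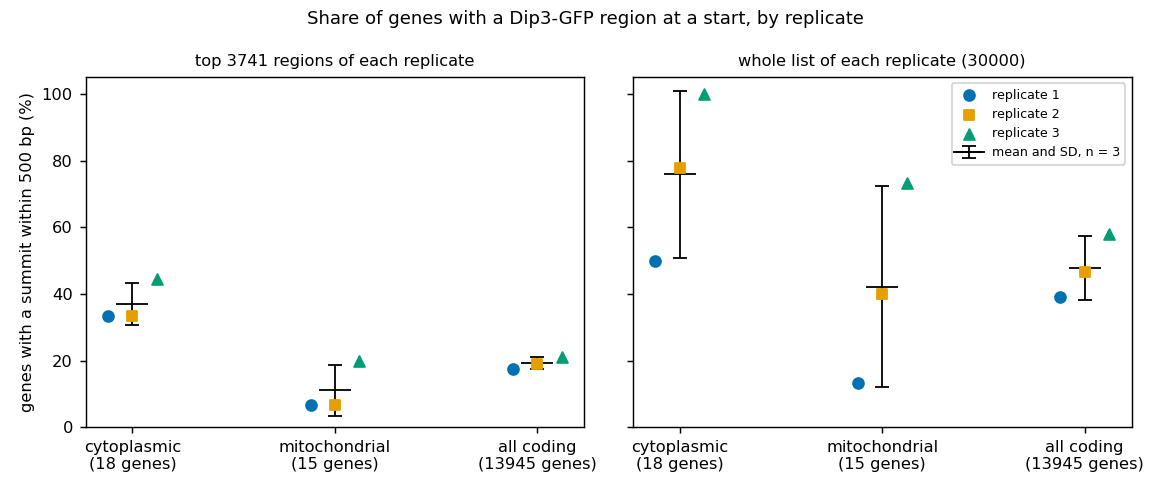
Percent of the 18 cytoplasmic synthetase genes, the 15 mitochondrial ones and all 13945 protein-coding genes with a region summit within 500 bp of a start, in the top 3741 regions (left) and in the whole list of 30000 regions (right) of each replicate; symbols are replicates, and the bars give mean and SD (n = 3). In both panels every replicate has a higher cytoplasmic than mitochondrial share, and replicate 3 is the highest in each group.

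Stricter peak sets kept mostly the same cytoplasmic genes. Of the bound genes, 6 had an IDR peak that overlapped the top list of every replicate (5 cytoplasmic and 1 mitochondrial), against 12.6% of all genes. They were AsnRS, AspRS, GluProRS, IleRS, SerRS and ArgRS-m. ThrRS was in 2 top lists, LeuRS-m in 1 and ArgRS in none. In the upper 50% of the IDR set by signal the count was 7 (6 cytoplasmic and 1 mitochondrial), against 11.7% of all genes, with ThrRS retained and ArgRS and LeuRS-m lost. When each region of the top lists had to share 50% of its length with the IDR peak and the reverse, the count was 4, against 9.59%, and SerRS and IleRS were lost. Their IDR regions are 324 and 151 bp long, while the other peaks at synthetase genes are all 390 bp. This rule also depends on region length, whose part in the loss was not tested. With q of at most 0.01, replicates 1 and 2 each listed 7 synthetase genes, against 13.9% and 17.2% of all genes. Replicate 3 then listed 19, of which 15 were cytoplasmic and 4 mitochondrial, against 37.4% of all genes.

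The 24 genes with no IDR peak differed widely in how close they came. HisRS, the histidyl-tRNA synthetase, missed the set narrowly, at rank 3754 of the pooled list from which the 3741 IDR peaks are the top. It ranked 29575, 3853 and 2918 in replicates 1, 2 and 3, so it was in the top list of replicate 3 alone. ValRS followed at pooled rank 4225, PheRS-m at 4576, GlnRS at 5238 and GlyRS at 6019. GlyRS ranked 4617, 9405 and 9198, and it and HisRS were the 2 unbound genes that had a region in all 3 replicate lists. ValRS ranked 3625 in replicate 3 and 7081 in replicate 2, with no region in replicate 1. GlnRS and PheRS-m had a region only in replicate 3, at ranks 2260 and 2888.

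Among the rest, regions in 2 of the 3 whole lists were found at AlaRS, LysRS, MetRS, TrpRS, TyrRS, AspRS-m and CysRS-m. Their best ranks ran from 3769 at TyrRS to 10681 at AspRS-m. The best rank came from replicate 2 at MetRS and AspRS-m and from replicate 3 at the other 5. A region in 1 list was found at CysRS, LeuRS, AlaRS-m, AsnRS-m, IleRS-m, MetRS-m, ProRS-m, SerRS-m, TrpRS-m and ValRS-m. GluRS-m and TyrRS-m had no region in any replicate list. The nearest IDR summit to the unbound genes was 1099 bp away at AlaRS and 23256 bp away at MetRS-m, the extremes of the 24.

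Whole lists, which hold background regions by design, reached far more of these genes. In replicate 1 the whole list of 30000 regions touched 11 synthetase genes, against 39.0% of all genes. In replicate 2 it touched 20, against 46.6%. In replicate 3 it touched 29, among them all 18 cytoplasmic genes and 11 of 15 mitochondrial genes, against 58.1%. The difference between synthetase genes and all genes was −5.66, 14.0 and 29.8 points, so its sign was not the same in all replicates (exact sign-flip permutation p = 0.5, two-sided, n = 3). The pooled list of 23524 regions touched 21 synthetase genes, 16 cytoplasmic and 5 mitochondrial, against 47.8% of all genes.

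**Figure D3:**
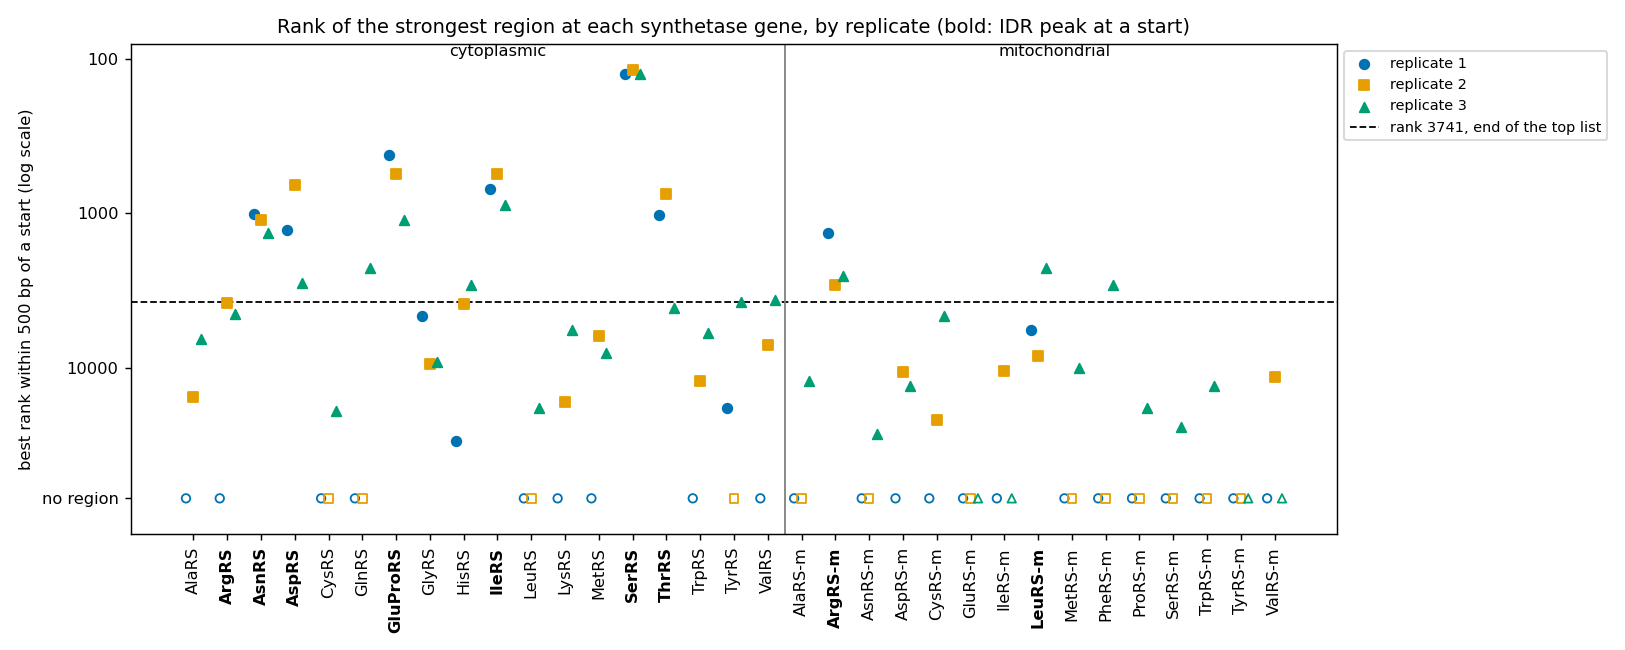
Rank of the strongest region within 500 bp of a start (log scale, 1 would be the strongest) for each of the 33 synthetase genes in each replicate, with bound genes in bold and open symbols for no region. SerRS lies between rank 118 and 126 in all 3 replicates. In replicates 1 and 2 every unbound gene lies below the dashed line at rank 3741 or has no region. The same holds there for the bound genes ArgRS and LeuRS-m.

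By catalytic class the bound shares had wide, overlapping intervals that include the 20.3% of all protein-coding genes. Of the class I genes 4 of 18 were bound (22.2%, exact 95% interval 6.41 to 47.6%) and of the class II genes 4 of 14 (28.6%, 8.39 to 58.1%), with GluProRS, which holds a domain of each class, counted in neither. Among cytoplasmic genes the counts were 2 of 9 in class I and 4 of 8 in class II, and among mitochondrial genes 2 of 9 and 0 of 6. Of the 8 cytoplasmic genes whose mammalian counterparts belong to the multisynthetase complex, ArgRS, AspRS, GluProRS and IleRS (4 genes) were bound, against 3 of the other 10 cytoplasmic genes. Exact 95% intervals were 15.7 to 84.3% for the 8 and 6.67 to 65.2% for the 10. They overlap and both include 20.3%, and no difference between the groups is read from these counts. Both groupings were written down after the bound genes were known.

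Many synthetase genes stand head to head with a neighbour, and the bound ones were all among these. A gene was called divergent when a protein-coding gene on the other strand had a start within 1000 bp upstream of one of its own starts. This arrangement held for 16 of 18 cytoplasmic genes (88.9%) and 7 of 15 mitochondrial genes (46.7%), and for 5052 of all 13945 genes (36.2%). Among divergent genes 7 of the 16 cytoplasmic ones were bound (43.8%) and 2 of the 7 mitochondrial ones (28.6%). Together that is 9 of 23 divergent synthetase genes (39.1%), near the 37.5% of all divergent genes. None of the 10 synthetase genes without a divergent start was bound, against 10.6% of all genes without one. The top lists reached 0, 0 and 1 of these 10 in replicates 1, 2 and 3, against 9.29%, 9.69% and 12.3%. With 10 genes, finding none at such a share is no result about the family. The difference in bound share between cytoplasmic and mitochondrial genes thus came with a difference in the share of divergent starts, whose part in it was not tested. The 1000 bp were chosen after the peak lists were examined, and with 500 bp the divergent genes were 14 of 18 cytoplasmic and 7 of 15 mitochondrial, with the same 9 bound genes.

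Among divergent genes alone, shares in the top lists are given here as counts without a test. Bound were 37.5%, 37.5% and 50% of 16 cytoplasmic genes in replicates 1, 2 and 3. Of 7 mitochondrial genes it was 14.3%, 14.3% and 28.6%, which is 1, 1 and 2 genes. With 7 mitochondrial genes, 1 gene more or less moves that share by 14.3 points. All divergent genes stood at 32.3%, 35.3% and 36.9%, between the 2 sets. The gap between the 2 opposed starts ran from 8 to 470 bp for the bound genes and from 35 to 561 bp for the unbound ones, so the ranges overlap.

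**Figure D4:**
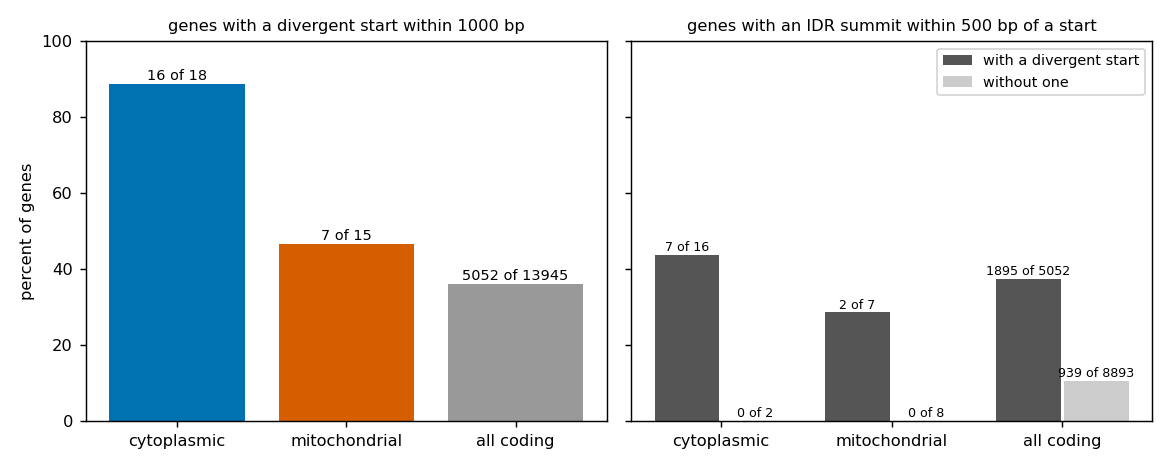
Left, percent of the cytoplasmic, mitochondrial and all protein-coding genes that have a divergent start within 1000 bp; right, percent of genes with an IDR summit within 500 bp of a start, among genes with (dark) and without (light) a divergent start, with the counts above the bars. The cytoplasmic bar is the highest on the left (88.9%). None of the 10 synthetase genes without a divergent start is bound, against 10.6% of all such genes. With so few genes this is no result about the family.

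The sharing of summits means that the peaks cannot be given to the synthetase genes alone. All 9 bound synthetase genes shared a summit with a gene on the other strand, against 1675 of all 2834 bound genes (59.1%). This count is tied to the divergent arrangement, which all 9 had, against 1895 of the 2834. Of the 10 summits 7 were nearer to the synthetase start and 3 nearer to the neighbour, which were those of GluProRS, AspRS and the weaker AsnRS peak. At ArgRS-m the summit was 153 bp from the synthetase and 159 bp from the neighbour, nearly midway in a gap of 312 bp. Which gene of each pair the bound protein acts on, if any, was not measured.

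Short promoter words were then counted in windows of 50 bases on either side of each summit and in the promoters, taken from 250 bases before to 50 after any start of a gene, on both strands. CAGCTG, Ohler motif 5, was in 17 of the 33 synthetase promoters (51.5%), in 9 of the cytoplasmic and 8 of the mitochondrial ones, against 22.3% of all 13945 promoters. Of the 17 promoters 6 belonged to bound genes and 11 to unbound ones. Only the IleRS summit window held it, 1 of 10, against 5.96% of the 2147 promoter summit windows. TATCGATA, the DNA replication-related element bound by DREF, was in 6 promoters (18.2%), those of AlaRS, ArgRS, AspRS, IleRS, TrpRS and PheRS-m, against 10.2%. It was in none of the 10 summit windows, against 4.75%. CGATA, which lies inside TATCGATA, was in 22 promoters (66.7%, against 53.0%) and in the window of the stronger AsnRS peak, against 26.7% of windows.

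The other words were in few synthetase promoters or near the share of all promoters. CACGTG was in 3 promoters (9.09%), those of GlnRS, ThrRS and LeuRS-m, against 5.30%, and the LeuRS-m one lay in the summit window, printed above in capitals, against 1.16% of windows. TGATGCAA, the core of the element through which ATF4 acts in mammals, was in 1 promoter, that of ThrRS, against 1.09% of all promoters. GGTCACAC (Motif 1) was in 4 promoters, all of unbound genes, against 8.71%. GTATTTT (Ohler motif 6) was in 4 as well, against 19.6%, and CATCNCTA (Ohler motif 7) in 2, against 7.44%. GAGAGAG was in 1, that of ArgRS-m, against 9.08%. TATAAA was in 19 (57.6%, against 51.2%) and TCAGT in 19 (57.6%, against 58.5%). GGGAAANCC, a core of the sites of Rel factors such as Dorsal, was in none of the 33, against 1.25%. A match is a stretch of letters and no evidence of a bound factor.

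Of genes that work beside the synthetases, 27.0% to 37.5% of each list were bound, against 20.3% of all genes. The lists hold only 8 to 38 matched genes, and the differences from all genes were not tested. Of 10 partners and synthetases outside the name pattern 3 were bound (30%, against 20.3% of all genes). They were GatA and GatC, subunits of the amidotransferase that completes the charging of mitochondrial glutamine transfer RNA, and beta-PheRS, a subunit of the cytoplasmic phenylalanyl-tRNA synthetase. GatA had a signal of 294, above GluProRS, while beta-PheRS had 109 at −16 bp and GatC 91.5 at −78 bp. The unbound ones were alpha-PheRS, the scaffold genes AIMP1, AIMP2 and AIMP3, Slimp, GatB and Dtd.

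Of 38 matched genes for transfer RNA modification and processing 11 were bound (28.9%, against 20.3% of all genes). Without Pop2, a symbol that in flies names a deadenylase, 10 of 37 were bound (27.0%). The strongest was Tcs5, of the KEOPS complex that modifies a base beside the anticodon, with a signal of 1554 and rank 9 in the whole IDR set. Elp5 and Elp6, of the Elongator complex that modifies wobble uridines, had 641 and 384, and Trmt6, part of a methyltransferase, had 552. Rpp20, a subunit of RNase P, and La, which binds the ends of new RNA polymerase III transcripts, were among the others. Of 8 genes of the response to uncharged transfer RNA 3 were bound (37.5%, against 20.3% of all genes). They were eIF2gamma (signal 162), Thor, the fly 4E-BP (88.4), and crc, the fly ATF4 (86.8). The peaks of Thor and crc held ranks 3546 and 3643 of 3741, close to the lowest signal of the IDR set, 85.1. Gcn2, the kinase that senses uncharged transfer RNA, was not bound.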

How the data were processed

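The deposited files are peak lists of 3 replicates and their pool on builds dm6 and dm3, and the dm6 lists were used. Calling was done on single replicates and on their pooled alignments, per the file headers, and the IDR set came from these lists. In it are the top 3741 regions of the pooled list and no others. Not given in the sources used here are the aligner, the caller and the IDR threshold, and the control was not analysed here. Each deposited region carries a signal value from the authors' caller, and because lists differ in scale, ranks within a list were compared. The −log10 q values are also as deposited. Sequencing depth was unknown.

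Starts of protein-coding genes (19607) came from Ensembl release 115 on BDGP6 patch 54. No region ran past the end of a chromosome arm. Exact intervals are Clopper-Pearson, at 95%. The labels call the replicates biological. The region of a replicate given for an IDR peak is the overlapping one with the nearest summit, with 1 bp as the minimum overlap. Every synthetase gene was named, bound ones with full values, and up to 4 bound genes of each further list with their signal. The SerRS site is not printed, since its opposed starts lie only 8 bp apart and the summit falls outside that gap. The other short gaps at the chosen sites are printed whole. Counting was tested on simulated lists. The synthetase genes, the further gene lists and the words were chosen with earlier results of these data known. Python 3.11.15, numpy 2.4.6, pandas 2.3.3 and scipy 1.17.1 were used. Of 46 listed genes of transfer RNA modification 6 found no match and 2 were synonyms of others, and of 9 genes of the amino acid response 1 found no match.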

Additional observations from a re-analysis of the deposited data

How the results depend on the processing

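The count of bound synthetase genes (9) stayed within 1.5 times in 9 of 11 alternatives. It was 4 (3 cytoplasmic, 1 mitochondrial, against 9.59% of all genes) with a reciprocal overlap of 50% with every top list. It was 21 (16 cytoplasmic, 5 mitochondrial, against 47.8% of all genes) in the pooled list. The mitochondrial count of 2 was less stable and moved by over 1.5 times in 7 of its 11 alternatives. It was also 1 in the upper 50% by signal (against 11.7% of all genes), where LeuRS-m was lost at rank 3257. In all 3 top lists it was 1 as well (against 12.6%), since LeuRS-m was in that of replicate 3 alone. Requiring the top lists of the other 2 replicates, with each replicate left out in turn, gave 6 to 7 genes, 5 to 6 of them cytoplasmic and 1 to 1 mitochondrial, against 13.6 to 14.7% of all genes. The share differences kept their direction in all 8 alternatives, at 18.5 to 45.2 points for cytoplasmic minus mitochondrial genes and 2.92 to 10.5 for synthetase minus all genes. Among the 1000 strongest regions, replicate 3 alone gave −0.673 for the difference to all genes. The divergent window of 500 bp was chosen after seeing the data and moved no count by over 1.5 times. No paired analysis was possible because the study has 1 group of samples, and the differences within replicates are between sets of genes. Peak lists carry no depth, 3 replicates allow no p below 0.25, and 1 gene is 6.67% of the mitochondrial set.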

Other observations

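By chromosome arm, 3 of 6 synthetase genes were bound on 2L, against 19.8% of all protein-coding genes there. The counts were 1 of 8 on 2R (19.1% of all genes), 2 of 10 on 3L (20.7%), 2 of 6 on 3R (22.3%) and 1 of 3 on X (19.1%). With so few genes on each arm, these counts do not separate the arms.

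Among the 1000 strongest regions of each replicate, 3, 5 and 2 synthetase genes had a summit within 500 bp of a start in replicates 1, 2 and 3. These are 9.09%, 15.2% and 6.06% of the synthetase genes, against 6.49%, 6.70% and 6.73% of all genes, so in replicate 3 the share was below that of all genes. The genes of replicate 1 were SerRS, IleRS and GluProRS. Replicate 2 added AspRS and ThrRS to these, and replicate 3 held SerRS and IleRS alone. None of the 15 mitochondrial genes was reached in any replicate, which at the share of all genes is no result about them.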
